A study of Mus musculus with 6 samples.

Results

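The genes described here were the plexins and neuropilins, the cell-surface receptors of the semaphorins. They were chosen by symbol: *Plxna1*, *Plxna2*, *Plxna3*, *Plxna4*, *Plxnb1*, *Plxnb2*, *Plxnc1*, *Plxnd1*, *Nrp1* and *Nrp2*, which made 10 of the 14647 genes in the expression table and 10 of the 13547 genes that were abundant enough to test. *Plxnb3*, the remaining class B plexin, was not in the table analysed here. RNA was taken from the pharyngeal region of 3 *Pax9*-null (*Pax9*-/-) and 3 wild-type mouse embryos at E9.5, all on a C57Bl/6J background, with no treatment. The null allele was constitutive, so that every tissue of the mutant embryos lacked a functional copy. Whole dissected tissue was sequenced according to the study's methods, whereas the sample labels describe sorted cells and a different library protocol. The labels do not state whether replicates shared a litter, and *P* values measure only the spread between these 6 libraries. Levels are given in RPKM, reads on a gene scaled to its length in kilobases and to the size of the library, so that levels can be compared between genes. Fold changes are on the log2 scale, *Pax9*-null over wild-type, from limma fitted to all tested genes, and a gene was called at a Benjamini-Hochberg adjusted *P* of at most 0.1.

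Plexins are single-pass transmembrane receptors that bind semaphorins through an extracellular sema domain and signal through a cytoplasmic GTPase-activating domain that acts on Ras-family and Rap GTPases. Neuropilins have only a short cytoplasmic tail. They capture secreted semaphorins for the class A plexins and also bind vascular endothelial growth factors (VEGFs) as co-receptors of the VEGF receptor tyrosine kinases. In the embryonic pharynx these receptors guide migrating neural crest cells, axons and endothelial cells, and mice without *Plxnd1* have malformed aortic arch arteries and outflow tract.

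Sequence upstream of the transcription start was compared first, as a description. Whether it bears on the fold changes was not tested. RefSeq promoter windows (GRCm38.p6, the 250 bases before each start) were matched for 8 of the 10 genes, giving 9 windows since *Plxnb2* has a pair of starts. Windows were not matched for *Plxna1* and *Plxna4*. The windows of the receptor with the lowest fold change (*Plxnd1*), of the most abundant receptor (*Plxnb2*) and of the gene with the fold change nearest to 0 (*Plxnc1*) are printed 5′ to 3′ on the strand of the gene, with the GC box GGGCGG, or CCGCCC where it lies on the other strand, in capitals.
*Plxnd1*, chr6:115995006-115995255, minus strand: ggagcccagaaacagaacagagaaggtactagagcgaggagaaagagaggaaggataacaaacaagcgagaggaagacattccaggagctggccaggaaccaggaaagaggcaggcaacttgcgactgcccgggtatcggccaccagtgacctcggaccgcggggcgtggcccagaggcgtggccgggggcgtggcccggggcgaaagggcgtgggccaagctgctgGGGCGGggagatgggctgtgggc
*Plxnb2*, chr15:89180789-89181038, minus strand: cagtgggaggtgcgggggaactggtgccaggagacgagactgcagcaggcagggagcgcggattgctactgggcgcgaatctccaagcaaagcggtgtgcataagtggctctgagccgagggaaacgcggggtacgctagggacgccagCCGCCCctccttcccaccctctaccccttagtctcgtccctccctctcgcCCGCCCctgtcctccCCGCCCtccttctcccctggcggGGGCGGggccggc
*Plxnc1*, chr10:94944846-94945095, minus strand: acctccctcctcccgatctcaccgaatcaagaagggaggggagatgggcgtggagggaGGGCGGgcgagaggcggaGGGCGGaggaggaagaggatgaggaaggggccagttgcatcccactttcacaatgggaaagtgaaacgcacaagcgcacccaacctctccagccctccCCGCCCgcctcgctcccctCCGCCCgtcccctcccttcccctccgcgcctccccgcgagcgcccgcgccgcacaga
A GC box on either strand was present in 9 of 9 windows, against 33.0% of the 32536 promoter windows of all genes. The *Plxnd1* window held 1 GC box, 16 CpG dinucleotides and 64.8% G and C. *Plxnb2* had 4 boxes, 20 CpG and 69.2% in the window shown, and *Plxnc1* had 4 boxes, 22 CpG and 68.8%, where the median window of all genes had 6 CpG and 52.4%. The box was therefore found upstream of genes that were called lower and of *Plxnc1* and *Nrp1*, which were not. The 9 windows held 62.8 to 75.2% G and C, and the windows of all genes were not matched for base content or expression. Those of *Nrp2*, *Plxna2* and *Plxnb1* were not clear of exons. On either strand, CCAAT (33.8% of all windows), TATAAA (12.3%), CACGTG (6.04%) and GTCACGC (1.79%) occurred in 0 of the 9 windows. A match of letters is not a binding site.

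Expression of the plexins and neuropilins was lower in *Pax9*-null embryos for most of the receptors. All 10 had a negative log2 fold change, and 7 of 10 were called lower (6 of 8 plexins and *Nrp2*), where 12.0% of all tested genes were called lower. None was called higher (0 of 10, against 14.7% of all tested genes). The 3 *Pax9*-null values all lay below the 3 wild-type values for the same 7 genes, a pattern seen in 20.1% of all tested genes. The median log2 fold change was −0.66 over the 10 receptors, −0.74 over the plexins and −0.42 over the neuropilins, against −0.00 over all tested genes. The receptors were named with this comparison of genotypes already known, so counts and *P* values describe these libraries and are not independent evidence. In this bulk tissue, fewer cells of a type and less RNA per cell cannot be told apart. An exact permutation test of one gene in 3 against 3 libraries cannot give a *P* below 0.1. The count of called receptors changed when single libraries were left out, and so did the share of all genes called lower. With *Pax9*-null replicate 1 left out it was 0, where 0.295% of all genes were called lower, with *Pax9*-null replicate 3 left out 0 (0.162%) and with *Pax9*-null replicate 2 left out 6 (10.2%). Leaving out a wild-type library gave 4 for replicate 1 (5.15%), 7 for replicate 2 (11.6%) and 5 for replicate 3 (6.64%). At the stricter adjusted *P* of at most 0.05, 4 receptors were called, *Plxna1*, *Plxnb1*, *Plxnb2* and *Plxnd1*, where 3.71% of all genes were called lower.

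**Figure D1:**
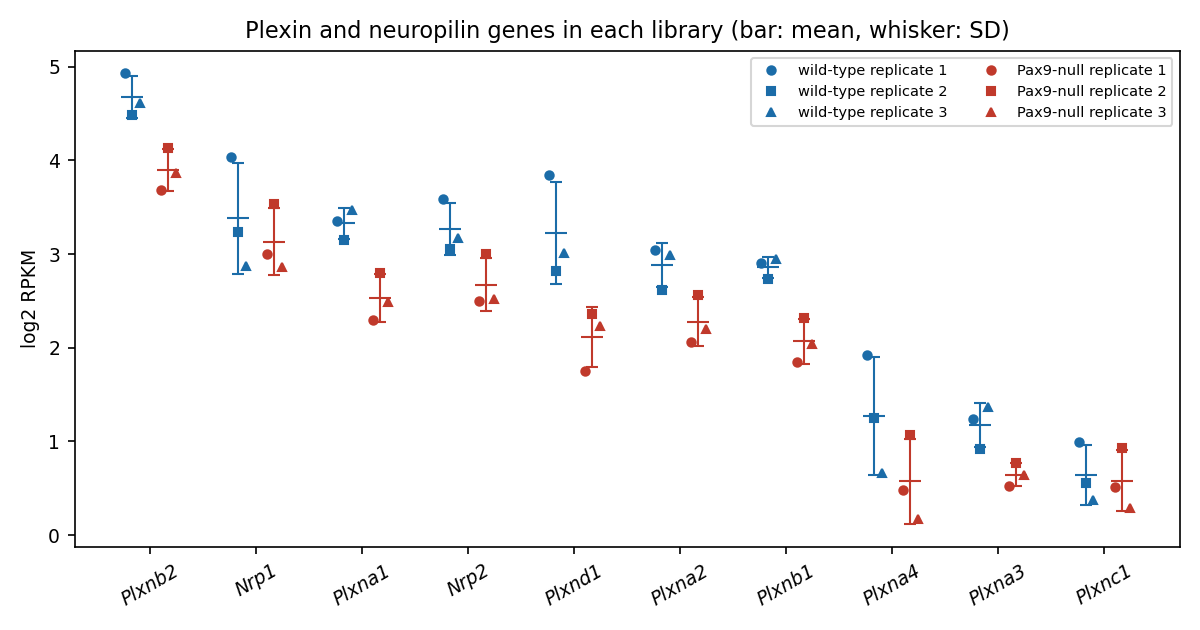
Level of each plexin and neuropilin gene in each library, as log2 RPKM on the vertical axis, with genes in order of their wild-type mean, blue symbols for 3 wild-type and red for 3 *Pax9*-null libraries, and bars for mean and SD. *Plxnb2* was the most abundant in both genotypes, *Pax9*-null replicate 2 (red square) was the highest *Pax9*-null library for all 10 genes, and the genotypes overlapped for *Nrp1*, *Plxna4* and *Plxnc1*.

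*Plxnd1* (ENSMUSG00000030123), the endothelial receptor for Sema3e, had the lowest fold change of the family. It lies on the minus strand at chr6:115954811-115995005 (GRCm38). Its levels were 3.37, 5.15 and 4.70 RPKM in *Pax9*-null replicates 1, 2 and 3 and 14.4, 7.04 and 8.10 RPKM in wild-type replicates 1, 2 and 3, from 284 to 1330 reads per library. The *Pax9*-null libraries were all below the wild-type libraries, and wild-type replicate 1 stood well above the other two. The log2 fold change was −1.11 (SE 0.28, adjusted *P*=0.0482, 95% confidence interval −1.76 to −0.46), a level of 46.3% of wild type. The call was lost without *Pax9*-null replicate 1 (−0.93, adjusted *P*=0.180) and without *Pax9*-null replicate 3 (−1.17, adjusted *P*=0.128).

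Among the class A plexins, which pair with neuropilins for the secreted semaphorins and also bind transmembrane class 6 semaphorins, *Plxna1* differed most clearly from its replicate spread. *Plxna1* (ENSMUSG00000030084, chr6:89316314-89362620, minus strand) was at 4.91, 6.97 and 5.62 RPKM in the 3 *Pax9*-null replicates and at 10.3, 8.90 and 11.1 RPKM in the 3 wild-type replicates. The groups did not overlap, and the log2 fold change was −0.80 (SE 0.15, adjusted *P*=0.0336), or 57.5% of wild type. *Plxna2* (chr1:194618218-194816869, plus strand), a receptor active in neural crest cells that enter the outflow tract, was at 4.17, 5.93 and 4.60 RPKM in *Pax9*-null and 8.23, 6.15 and 7.97 RPKM in wild-type replicates. Its groups were separated only by the narrow gap between the second replicate of each genotype, and it fell by 0.61 on the log2 scale (SE 0.17, adjusted *P*=0.0608). *Plxna3* (chrX:74329066-74344689, plus strand) was scarce, with 131 to 256 reads per library. It was at 1.44, 1.70 and 1.56 RPKM in *Pax9*-null and 2.37, 1.89 and 2.59 RPKM in wild-type replicates. The *Plxna3* groups did not overlap, and it fell by 0.53 (SE 0.18, adjusted *P*=0.0858).

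*Plxna4* (chr6:32144268-32588192, minus strand), best known in sensory and sympathetic axons, was not called. Its levels were 1.39, 2.10 and 1.13 RPKM in *Pax9*-null and 3.79, 2.38 and 1.58 RPKM in wild-type replicates. Wild-type replicate 3 lay below *Pax9*-null replicate 2, so the groups overlapped. The log2 fold change was −0.70 with a wide 95% confidence interval, −1.52 to 0.12 (SE 0.35, adjusted *P*=0.194, exact permutation *P*=0.2). Without wild-type replicate 3 it was −1.01 and was called (adjusted *P*=0.0915). Of the called class A plexins, *Plxna1* was not called without *Pax9*-null replicate 1 (adjusted *P*=0.128) or replicate 3 (adjusted *P*=0.128). *Plxna2* was not called when either of these libraries, wild-type replicate 1 or wild-type replicate 3 was left out (adjusted *P* up to 0.209), and *Plxna3* only stayed called without wild-type replicate 2 (adjusted *P* up to 0.250 otherwise).

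Both class B plexins in the table, which bind class 4 semaphorins and associate with the receptor tyrosine kinases Met and Erbb2, were called lower. *Plxnb2* (chr15:89155549-89180788, minus strand) was the most abundant receptor, with 1063 to 2753 reads per library. It was at 12.9, 17.6 and 14.6 RPKM in *Pax9*-null and 30.5, 22.4 and 24.5 RPKM in wild-type replicates. The groups were separated, and the log2 fold change was −0.78 (SE 0.15, adjusted *P*=0.0341), or 58.3% of wild type. *Plxnb1* (chr9:109095389-109119917, plus strand) was at 3.60, 4.99 and 4.11 RPKM in *Pax9*-null and 7.47, 6.65 and 7.70 RPKM in wild-type replicates. Its groups did not overlap either, and the log2 fold change was −0.79 (SE 0.15, adjusted *P*=0.0309). Neither was called without *Pax9*-null replicate 1 (adjusted *P*=0.137 for *Plxnb2* and 0.119 for *Plxnb1*) or without *Pax9*-null replicate 3 (0.128 and 0.125).

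*Plxnc1* (chr10:94790866-94944835, minus strand), the receptor for the membrane-anchored semaphorin Sema7a, was the least abundant receptor of the wild-type embryos and drew 112 to 198 reads in each library. Levels were 1.43, 1.91 and 1.22 RPKM in *Pax9*-null and 2.0, 1.47 and 1.29 RPKM in wild-type replicates. The ranges were interleaved, and the log2 fold change of −0.06 (SE 0.24, adjusted *P*=0.879, 95% confidence interval −0.63 to 0.50) left a change of either sign possible. Its sign was positive in 5 of the 18 alternative settings in which it was tested, wild-type replicate 1 left out among them (0.12).

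The neuropilins differed from each other in how far the genotypes overlapped. *Nrp2* (chr1:62703285-62818695, plus strand), a co-receptor for Sema3f and VEGF-C, was at 5.66, 8.0 and 5.73 RPKM in *Pax9*-null and 12.0, 8.32 and 8.98 RPKM in wild-type replicates. *Pax9*-null replicate 2 came close to wild-type replicate 2 without reaching it. The log2 fold change was −0.60 (SE 0.19, adjusted *P*=0.0729), or 66.1% of wild type. It lost its call when any one library other than *Pax9*-null replicate 2 and wild-type replicate 2 was left out (adjusted *P* up to 0.236).

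*Nrp1* (chr8:128358604-128503363, plus strand), a co-receptor for Sema3a and VEGF-A, was at 7.99, 11.6 and 7.29 RPKM in *Pax9*-null and 16.4, 9.41 and 7.35 RPKM in wild-type replicates. Wild-type replicate 1 was the highest library, while wild-type replicate 3 was level with *Pax9*-null replicate 3, so the groups overlapped. The log2 fold change was −0.25 (SE 0.30, adjusted *P*=0.581, 95% confidence interval −0.94 to 0.45), and without wild-type replicate 1 it was 0.08. The log2 ratio of *Nrp1* to *Nrp2* was 0.46±0.10 (SD, *n*=3) in *Pax9*-null and 0.11±0.38 in wild-type libraries, a difference within the wild-type spread (exact permutation *P*=0.2, 0.229 after adjustment over the 8 ratios compared).

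The order of the receptors within the tissue had few clear steps. In wild-type embryos *Plxnb2* led with a mean log2 RPKM of 4.68±0.23 (SD, *n*=3), followed by *Nrp1* (3.38±0.59), *Plxna1* (3.33±0.16), *Nrp2* (3.27±0.28), *Plxnd1* (3.23±0.55), *Plxna2* (2.88±0.23) and *Plxnb1* (2.86±0.11). *Plxna4* (1.28±0.63), *Plxna3* (1.18±0.24) and *Plxnc1* (0.64±0.32) formed the low end. Wild-type ranges of neighbours in this order overlapped except at the steps from *Plxnb2* to *Nrp1* (1.29 on the log2 scale) and from *Plxnb1* to *Plxna4* (1.58). In *Pax9*-null embryos *Plxnb2* (3.90±0.23) and *Nrp1* (3.13±0.36) kept the first and second rank. *Plxna1* and *Nrp2* exchanged ranks 3 and 4, and *Plxnd1* moved from rank 5 to rank 6 (2.12±0.32), below *Plxna2* (2.28±0.26). *Plxna4* moved from rank 8 to rank 10 (0.57±0.46), nearly level with *Plxnc1* (0.58±0.33) and *Plxna3* (0.65±0.12). The steps between these neighbours were smaller than their SDs.

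Plexin mRNA as a whole was lower in each *Pax9*-null library than in any wild-type library. The levels of the 8 plexin genes summed to 33.2, 46.3 and 37.6 RPKM in *Pax9*-null and 78.9, 56.9 and 64.9 RPKM in wild-type replicates. *Plxnb2* made up 38.6%±0.5 of this sum in *Pax9*-null and 38.6%±0.8 in wild-type libraries (SD, *n*=3, exact permutation *P*=1). The share of *Plxnd1* was 10.1, 11.1 and 12.5% in *Pax9*-null and 18.2, 12.4 and 12.5% in wild-type replicates. Its mean was 14.3%±3.3 in wild-type libraries, of which replicate 1 was the highest, and 11.3%±1.2 in *Pax9*-null libraries (exact permutation *P*=0.3). *Plxnc1* alone of the 8 plexins had a share with no overlap between genotypes, 3.90%±0.56 in *Pax9*-null and 2.37%±0.33 in wild-type libraries (exact permutation *P*=0.1, the smallest the design allows).

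**Figure D2:**
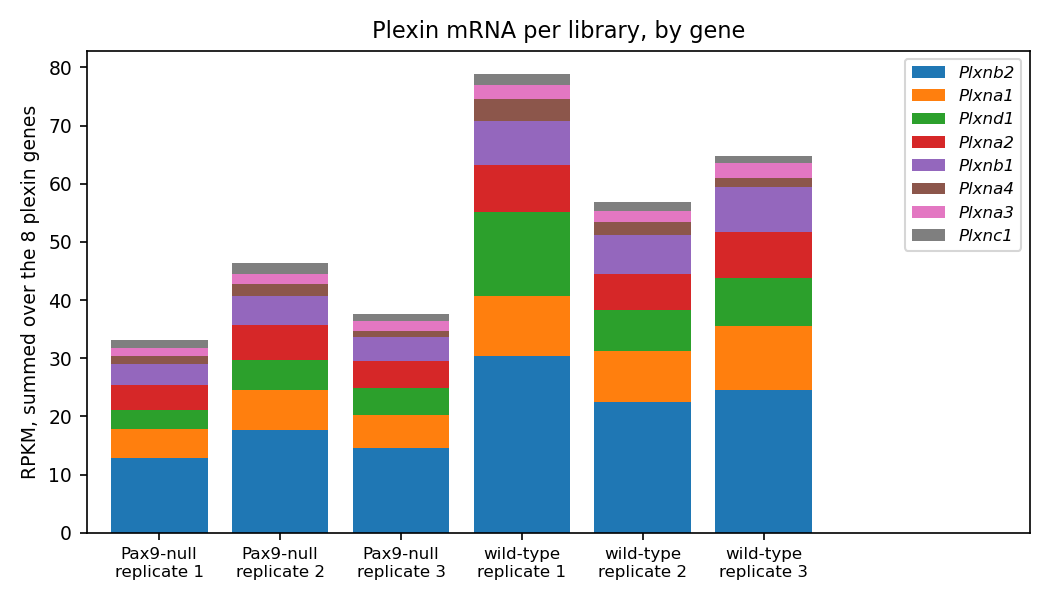
Sum of the RPKM values of the 8 plexin genes in each of the 6 libraries, stacked by gene, with RPKM on the vertical axis from 0. The *Pax9*-null bars reach 33.2 to 46.3 and the wild-type bars 56.9 to 78.9, and *Plxnb2* takes a like share of each bar.

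Each receptor was also set against the mean of the other 9 in the same library, which removes a shift common to all receptors. *Plxnd1* was 0.54 lower in *Pax9*-null libraries on this log2 scale and *Plxnb2* 0.17 lower by group means of 2.05 and 2.23, while *Plxnc1* was 0.62 higher. These 3 were the receptors with no overlap between genotypes (exact permutation *P*=0.1 each, 0.333 after adjustment over 10 receptors). No share over all tested genes was computed for this scale. *Plxnd1* and *Plxnc1* also had the lowest and highest fold changes in these same values. Trends with gene length and GC content, described below, differed between receptors and were not removed first. *Nrp1* was 0.41 higher with overlapping groups (exact permutation *P*=0.2). For *Plxnd1* the values were −0.13, 0.02 and 0.33 in *Pax9*-null and 0.95, 0.37 and 0.52 in wild-type replicates, so that *Pax9*-null replicate 3 and wild-type replicate 2 nearly met.

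The receptors varied together from library to library. *Pax9*-null replicate 2 was the highest *Pax9*-null library for 10 of 10 receptors, compared with 34.4% of all tested genes, and wild-type replicate 1 was the highest wild-type library for 7, compared with 39.0%. *Pax9*-null replicate 1 was the lowest of its group for 7 receptors and wild-type replicate 2 for 7. Over the 45 pairs of receptors the median Pearson *r* of log2 RPKM was 0.87 across the 6 libraries (range 0.19 to 0.997). After the genotype means were removed it was 0.75 (range 0.00 to 0.99), with a positive value in all 45 pairs. These correlations rest on 6 libraries with shared depth and base composition and are a description only. The genes with the pattern most like *Plxnd1* across the 6 libraries were *Limk2* (*r*=0.997), *Pick1* (0.997), *Ntng1* (0.997), *Ascc2* (0.996) and *Gtf2ird1* (0.996). High values were common, since 644 of the other 13546 tested genes reached an *r* of 0.95.

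The receptor genes are long and rich in G and C, and fold changes in these libraries varied with both properties. The median length of the receptors was 9323 bp against 3855 bp for all tested genes, and their median GC content was 53.3% against 49.3%. The log2 fold changes of the tested genes correlated negatively with length (Spearman's rho −0.41) and with GC content (−0.44), a description across genes that do not count as replicates. Of the 2492 tested genes at least as long as the shortest receptor (7119 bp), 20.1% were called lower and the median log2 fold change was −0.17. *Plxnd1* had the highest GC content of the receptors (60.8%) and *Nrp1* the lowest (41.9%).

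Removal of each library's trends with length and GC content brought most of the receptors closer to 0. The fold change was then −0.62 for *Plxnd1* (SE 0.24, adjusted *P*=0.174), −0.33 for *Plxnb2* (0.117), −0.30 for *Plxna1* (0.182) and −0.28 for *Plxnb1* (0.187). These 4 kept separate groups, a pattern found for 16.2% of all genes after this step. *Nrp1*, for which the trend was 0.00, stayed at −0.25, whereas *Plxnc1* turned to 0.14. In all, 9 of 10 receptors had a negative value with a median of −0.27, and 0 were called, where 2.89% of all genes were called lower. Each trend was also removed alone, as settings added after seeing the data. Without the length trend 6 receptors were called, *Plxna1*, *Plxna2*, *Plxnb1*, *Plxnb2*, *Plxnd1* and *Nrp2*, where 13.5% of all genes were called lower. Without the GC trend 4 were called, *Plxna1*, *Plxna2*, *Plxnb1* and *Plxnb2*, where 5.08% of all genes were called lower, and *Plxnd1* was not (−0.95, adjusted *P*=0.108). Whether length and GC content account for the lower receptor levels was not tested.

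**Figure D3:**
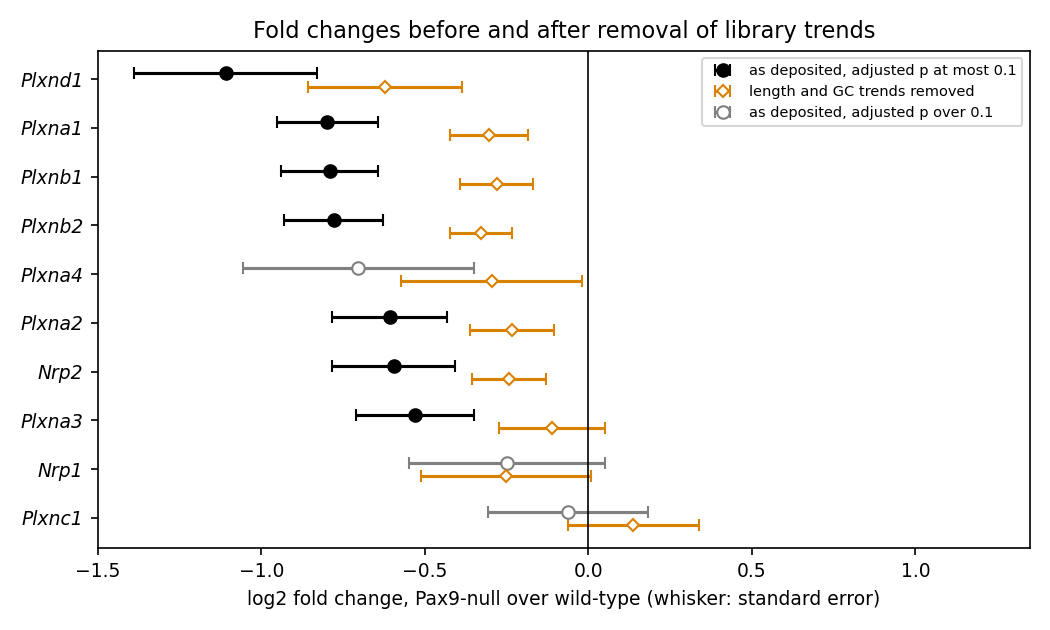
Log2 fold change, *Pax9*-null over wild-type, of each receptor on the horizontal axis with its standard error, for deposited values (black, called; grey, not called) and after removal of each library's length and GC trends (orange diamonds). *Plxnd1* moved from −1.11 to −0.62 and *Nrp1* did not shift.

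Ligands of the receptors were taken from a list of 25 semaphorin and VEGF genes, of which 23 were tested. In this list 9 of 23 were called lower and 0 higher, where 12.0% and 14.7% of all tested genes were called, with a median log2 fold change of −0.38. All 9 were among the 18 semaphorins tested, with a median of −0.48, and 0 of 5 VEGF genes were called (median −0.09). The other 14 ligands, *Sema3e*, *Sema3a*, *Sema3c*, *Sema6d* and *Vegfa* among them, did not pass the test. *Sema3e*, the *Plxnd1* ligand, was at 0.78, 1.44 and 0.95 RPKM in *Pax9*-null and 1.41, 0.73 and 0.65 RPKM in wild-type replicates, with overlapping groups and a log2 fold change of 0.23 (SE 0.36, adjusted *P*=0.686). *Sema3a* had a value of −0.10, *Sema3c*, a guidance cue of the outflow tract, 0.14 and *Vegfa* 0.23 (adjusted *P*=0.766, 0.432 and 0.216). *Vegfc*, which binds *Nrp2*, had a value of 0.04 (adjusted *P*=0.829), and *Sema3b*, *Sema3d*, *Sema4b*, *Sema6b*, *Sema6c*, *Vegfb*, *Vegfd* and *Pgf* lay between −0.46 and −0.09. *Sema3f*, which signals through *Nrp2*, was called lower at −0.55 (SE 0.16, adjusted *P*=0.0640).

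Among ligands of the other plexins, *Sema4d*, a ligand of *Plxnb1*, fell by 0.70 (SE 0.24, adjusted *P*=0.0913), *Sema6a*, a ligand of *Plxna2* and *Plxna4*, by 0.62 (adjusted *P*=0.0658) and *Sema7a*, the ligand of *Plxnc1*, by 0.78 (adjusted *P*=0.0826). *Sema4d* had only 33 to 81 reads per library and *Sema7a* 23 to 57. The remaining called ligands were *Sema4g* (−1.05), *Sema3g* (−1.04), *Sema5b* (−0.73), *Sema5a* (−0.58) and *Sema4c* (−0.37). *Sema6d*, a ligand of *Plxna1*, had a value of −0.51 and was not called (adjusted *P*=0.151). The log2 ratio of *Plxnd1* to *Sema3e* was 2.12, 1.83 and 2.31 in *Pax9*-null and 3.34, 3.27 and 3.65 in wild-type replicates, a difference of −1.34 (exact permutation *P*=0.1, 0.2 after adjustment over the 8 ratios). It was taken without removal of the length and GC trends, and *Sema3e* has 42.0% G and C against 60.8% for *Plxnd1*. The ratio of *Plxnb2* to *Sema4d* differed by −0.08 (exact permutation *P*=0.6). Leaving out *Pax9*-null replicate 1 or 3 gave 0 ligand calls in each case, where 0.295% and 0.162% of all genes were called lower. Leaving out wild-type replicate 1 or 3 gave 1 or 2, where 5.15% and 6.64% were called lower.

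**Figure D4:**
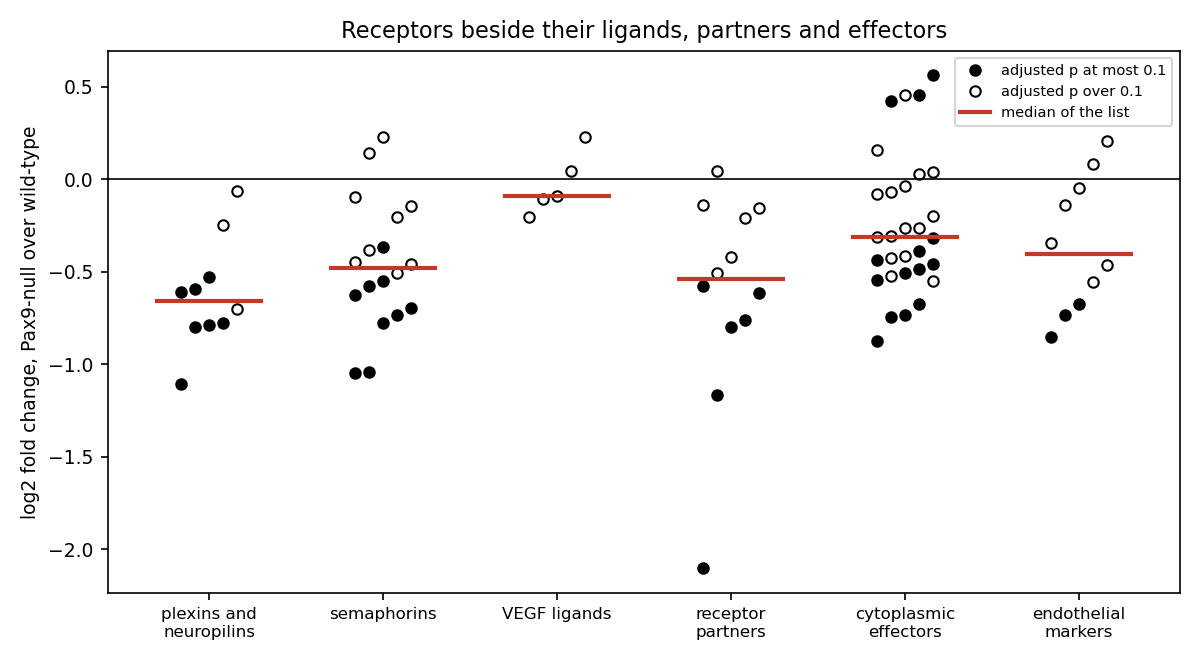
Log2 fold change, *Pax9*-null over wild-type, of each tested gene in the receptor, ligand, partner, effector and endothelial marker lists (filled circles, called; open circles, not called; red lines, medians). The median lies at −0.66 for plexins and neuropilins, −0.48 for semaphorins and −0.09 for VEGF genes.

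Of 17 genes for surface partners of the receptors, 12 were tested, 6 were called lower and 0 higher, with a median of −0.54, where 12.0% and 14.7% of all tested genes were called. The lowest were *Cntn2* (−2.10, adjusted *P*=0.0310) and *L1cam* (−1.17, adjusted *P*=0.0639), adhesion molecules of axons. *Flt4*, the VEGF-C receptor that works with *Nrp2*, fell by 0.80, *Robo1*, a Slit receptor, by 0.76, *Ptk7* by 0.61 and *Erbb2*, a partner of class B plexins, by 0.58. *Met*, the other kinase partner of class B plexins, was not called (−0.16, SE 0.22, adjusted *P*=0.632). *Kdr* and *Flt1*, the VEGF-A receptors that work with *Nrp1*, were not called (−0.51, adjusted *P*=0.148, and −0.42, adjusted *P*=0.280).

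Of 30 tested genes for cytoplasmic effectors, 11 were called lower and 3 higher, with a median of −0.32, where 12.0% and 14.7% of all tested genes were called. The genes called lower held relays of semaphorin signals to the cytoskeleton, namely *Crmp1* (−0.87, adjusted *P*=0.0121), *Dpysl5* (−0.68) and *Dpysl3* (−0.44) of the collapsin response mediators, *Mical3* (−0.74) and *Mical1* (−0.51) of the actin-oxidising enzymes, the plexin-bound exchange factors *Farp1* (−0.75) and *Arhgef11* (−0.49), and *Limk1* (−0.55). *Arhgap35* (−0.46), *Rras* (−0.39), a GTPase on which plexins act, and *Fyn* (−0.32) completed them. Those called higher were the small GTPases *Rap1a* (0.56, adjusted *P*=0.0343), *Rap1b* (0.46, adjusted *P*=0.0459) and *Arf6* (0.42, adjusted *P*=0.0338). Partners and effectors together had 20 calls in either direction among 42 tested, where 26.7% of all tested genes were called. Leaving out *Pax9*-null replicate 1 or 3 gave 2 or 1 calls, where 2.22% and 1.29% of all genes were called in either direction. Leaving out wild-type replicate 1 or 3 gave 12 or 13, where 13.3% and 15.8% were called.

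*Plxnd1* is a receptor of endothelial cells, and markers of that cell type were read beside it. Of 10 endothelial markers 3 were called lower (*Robo4*, *Cdh5* and *Tie1*) and 0 higher, where 12.0% and 14.7% of all tested genes were called. Their median log2 fold change was −0.40. Their levels summed to 66.2, 77.5 and 66.6 RPKM in *Pax9*-null and 107.1, 80.2 and 71.3 RPKM in wild-type replicates, and wild-type replicate 1 was the highest library here as it was for *Plxnd1*. *Plxnd1* relative to *Kdr* was −1.04±0.22 in *Pax9*-null and −0.44±0.12 in wild-type libraries on the log2 scale, without overlap. Relative to *Pecam1* the difference was −0.65, also without overlap, and relative to *Cdh5* it was −0.44 with a touch of overlap in the replicates (exact permutation *P*=0.1, 0.1 and 0.2, or 0.2, 0.2 and 0.229 after adjustment over the 8 ratios). Relative to *Nrp1* it was −0.86 (exact permutation *P*=0.1, 0.2 after adjustment). These ratios were taken without removal of the length and GC trends. *Plxnd1* (60.8% G and C) is richer in these bases than *Kdr* (49.4%), *Pecam1* (50.2%), *Cdh5* (52.2%) and *Nrp1* (41.9%). The trend alone, *Pax9*-null over wild-type, was −0.49 for *Plxnd1* and 0.00 for *Nrp1*. The part of endothelial content in the *Plxnd1* difference was not tested.

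Checks of the libraries bear on every receptor value. *Pax9* itself was at −0.55±0.11 log2 RPKM in *Pax9*-null and 0.77±0.17 in wild-type libraries (SD, *n*=3), with a log2 fold change of −1.32 (SE 0.19, adjusted *P*=0.0155), so that the labels and the targeted gene point the same way, although 37 to 43 reads per library remained on it. Between 11704594 and 11911774 reads were recovered from the values of each *Pax9*-null library and between 12145435 and 12736864 from each wild-type library. Wild-type replicate 3 stood apart in its make-up, with summed cardiomyocyte markers of 78.0 RPKM against 1132 to 1493 in the other 5 libraries and summed smooth muscle markers of 50.5 RPKM against 217 to 289. Neural markers were highest in the same library (242 RPKM against 124 to 159), where *Tubb3* alone was at 118 RPKM. Of these 11 markers, 7 had a negative log2 fold change, with a median of −0.64 over the list. The progenitor markers *Sox1* (0.13), *Sox2* (0.26), *Pax6* (0.25) and *Olig2* (0.58) were positive and not called. In the list 2 of 11 were called lower (*Nefm* and *Elavl3*) and 0 higher. Beside these and the following marker counts, 12.0% of all tested genes were called lower and 14.7% higher. Primitive erythroid markers summed to 2568 to 4747 RPKM in *Pax9*-null and 2331 to 2418 RPKM in wild-type libraries, and 2 of 6 were called higher. Neural crest markers summed to 86.7 to 95.2 RPKM in *Pax9*-null and 82.9 to 90.3 RPKM in wild-type libraries, with *Twist1* the largest part of each sum. *Twist1* was at 57.4, 56.3 and 54.9 RPKM in *Pax9*-null and 44.8, 45.5 and 42.4 RPKM in wild-type replicates. Of the 8 markers, 5 had a negative log2 fold change, and the median was −0.18. Among them 2 were called lower (*Erbb3* and *Sox10*) and 1 higher (*Twist1*). Of 5 endodermal markers 0 were called, and of 5 mesodermal markers *Tbx1* was called lower and *Tcf21* higher. *Tbx1* is not specific to mesoderm, since the study also describes it in pharyngeal ectoderm and endoderm. The sums of both lists overlapped between genotypes, at 42.0 to 53.0 and 44.4 to 49.3 RPKM for endoderm and 48.8 to 59.9 and 54.2 to 67.9 RPKM for mesoderm. *Epcam* made up most of each endodermal sum, and the median log2 fold change of the 5 endodermal markers was −0.32. Without wild-type replicate 3, 5 of the 10 receptors were called lower. The part of tissue make-up in the receptor values was not tested.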

How the data were processed

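The deposited table held 1 log2 RPKM value per gene and library, made by the authors from paired-end reads of TruSeq libraries. Per the submitters' processing notes the tools were Trimmomatic 0.32, STAR 2.5.1a and featureCounts 1.5.1, with GRCm38 as genome, and the study's methods add that reads were reduced to unique, non-redundant pairs and sub-sampled. Reads were recovered from the values, with 82.7 to 82.8% of values whole (within 0.05 read) at GENCODE M21 gene lengths and the rest after a search of lengths. Counting used default settings according to the study's methods, under which strand is ignored and reads on overlapping genes are not assigned. Short exonic overlaps with other genes touch *Plxna1* (*Gm26811*, 191 bp), *Plxna4*, *Plxnb1*, *Plxnc1* and *Nrp1*, and their reads there are uncertain.

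The log2 values of 13547 genes, whose mean over all libraries reached 0.5 RPKM, were fitted with limma 3.58.1 (R 4.3.3) without a pseudocount, two-sided, with a variance trend and Benjamini-Hochberg adjustment. The fit was run on simulated data for 13547 genes, where 200 of 200 changed genes were called. Every simulated gene had the same spread, and the shift was larger than that of any receptor but *Plxnd1*. Whether the fit finds fold changes of the size seen in the receptors, at the spread of these libraries, was not tested. Library trends with length and GC content were splines with 4 degrees of freedom. The receptors, gene lists and tests were chosen with earlier results of these data known. The text names every receptor, the called genes of the ligand, partner and effector lists, a set of ligands and receptors with known pairings, and the 5 genes most correlated with *Plxnd1*. The other uncalled ligands and *Met* were added after their values were seen. Lists of cell type markers are summarised by counts. Alternatives were pseudocounts, filters, centring, weights, a replicate block, trends and each library left out. Columns of other samples numbered 0.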

Additional observations from a re-analysis of the deposited data

How the results depend on the processing

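The number of receptors called lower was 7, and it became 4 at an adjusted *P* of at most 0.05, 4 with the GC trend removed, 0 with both length and GC trends removed, and 0 to 7 with single libraries left out. For ligands, 9 lower calls became 1 with a mean of at least 5 RPKM, where only 8 of the 23 were still tested and 13.7% of all genes were called lower. The ligand count was 1 at an adjusted *P* of at most 0.05 (3.71% of all genes called lower), 1 with the GC trend removed (5.08%) and 0 with both trends removed (2.89%). With libraries left out it was 0 to 8. For partners and effectors, 20 calls in either direction among 42 tested became 11, 8 and 3 under the stricter *P*, the GC trend and both trends. The shares of all genes called in either direction were then 9.85%, 10.3% and 5.26%. With libraries left out there were 1 to 23 calls, where 1.29% to 26.4% of all genes were called. Removal of the length or the GC trend alone was added after seeing the data. With the length trend alone removed, 6 receptors (6 lower), 7 ligands (6 lower) and 20 partners and effectors (16 lower) were called. In that setting 13.5% of all genes were called lower and 28.1% in either direction. Fewer samples enter each fit with a library left out, fewer genes pass the higher filter, and the cause of the other shifts was not tested.

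Fold changes reversed in sign for *Plxnc1*, at 0.14 with both trends removed, 0.093 with the length trend removed and 0.045 with library weights. Single libraries left out gave −0.24 to 0.12 for *Plxnc1*, positive without *Pax9*-null replicate 3 (0.082) and wild-type replicate 1. They gave −0.50 to 0.078 for *Nrp1*, positive without wild-type replicate 1. Of the alternative values of single receptors, 144 kept direction and side of the threshold, 36 kept direction but were no longer called, 1 became called and 6 reversed. The median of all genes moved to 0.03 with median centring and −0.03 with quantile normalization.

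With the replicate number as a block, 4 receptors (*Plxna1*, *Plxnb1*, *Plxnb2* and *Plxnd1*) and 2 ligands were called lower, where 3.65% of all genes were called lower. Partners and effectors had 11 calls, 9 of them lower, where 10.2% of all genes were called in either direction. Same-numbered libraries deviated from their group means with *r* of −0.02, −0.17 and 0.26, and differently numbered ones with −0.35 to 0.36, so the numbers were not taken to pair embryos. *Plxna3* and *Plxnc1* rest on the fewest reads, 131 to 256 and 112 to 198 per library.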
